A study of Mus musculus with 8 samples.

Results

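The translation initiation factor genes were compared between brains of mice labelled Nsun5-KO and of wild-type (WT) mice. They were taken as the protein-coding rows of the count table whose symbol begins with Eif and a digit, without the eIF2 kinase genes (Eif2ak), which gave 51 of the 54532 genes. Symbols sorted them into eIF1 (5 genes), eIF2 (6), eIF2B (5), eIF3 (14), eIF4 (16), eIF5 (4) and eIF6 (1). The libraries were 4 labelled Nsun5-KO and 4 WT, from brain RNA of male littermates of 3 months of age that were anaesthetised with pentobarbital before the tissue was taken. Nsun5 encodes a methyltransferase that places 5-methylcytosine on the RNA of the large ribosomal subunit. How the allele was made is not given in the sources used here, and no other allele or treatment is named.

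The libraries held 15642086 to 17829523 counts, and initiation factor genes took 0.628% to 0.6505% of them in libraries labelled Nsun5-KO and 0.64% to 0.656% in WT. Nsun5 itself had 83 to 124 counts in libraries labelled Nsun5-KO and 82 to 109 in WT, a log2 fold change of 0.13 (SE 0.15; adjusted p = 0.817 with edgeR). Its gene-level count did not separate the genotypes, so each direction given is that of the libraries as labelled. The labels name 5 mice of each genotype and do not tie each library to 1 mouse, so p-values measure only the spread between these libraries, which may be technical. Markers of cell types and regions differed with the genotype label. The summed level of 6 myelin genes (Mbp, Mog, Mag, Mobp, Cnp and Mal) was 3173 to 4392 CPM (counts scaled to library size) in libraries labelled Nsun5-KO and 4727 to 5306 in WT, with 6 of 6 below WT. Neuronal markers summed to 5313 to 5824 CPM in libraries labelled Nsun5-KO and 4469 to 4874 in WT (5 of 5 above WT), and cortical and hippocampal markers to 1377 to 1829 in libraries labelled Nsun5-KO and 1056 to 1367 in WT (5 of 5 above). Ependymal markers summed to 9.63 to 19.1 CPM in libraries labelled Nsun5-KO and 20.99 to 33.99 in WT. Of these, 5 of 5 were below WT (median log2 fold change -1.285). Hypothalamic markers summed to 1.89, 2.48, 3.98 and 3.4 CPM in libraries labelled Nsun5-KO and 99.9, 39.43, 6.77 and 5.56 CPM in WT. WT replicates 1 and 2 stood apart through the neuropeptide genes Hcrt and Pmch, which together had 87.34 and 28.66 CPM there. In WT replicates 3 and 4 they had 0.12 and 0.06 CPM. The filter on low counts left these genes untested. The 3 hypothalamic markers tested (Nkx2-1, Gpr50 and Hdc) were all below WT (median log2 fold change -1.92). Their libraries did not overlap, where 2.71% of all genes tested were lower without overlap. Choroid plexus markers overlapped, at 46.6 to 1140 CPM in libraries labelled Nsun5-KO and 294.4 to 1120 in WT, with 5 of 5 below WT (median log2 fold change -0.9995), and cerebellar markers at 7.04 to 17.9 CPM in libraries labelled Nsun5-KO and 10.5 to 30.5 in WT, with 2 of 2 tested below (median -0.52). No marker of these lists was at 0 in all 8 libraries. In bulk tissue, fewer cells of a type and less RNA per cell cannot be told apart, and the part of this shift in the values of initiation factor genes was not tested.

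Initiation factors bring the small ribosomal subunit, the initiator tRNA and an mRNA together. The eIF4 factors bind the cap and unwind the leader, eIF3 holds the small subunit, eIF1 and eIF1A guard the choice of start codon, eIF2 carries the initiator tRNA, eIF2B recharges eIF2 with GTP, and eIF5 and eIF5B complete the joining of the subunits. In humans, mutations of the genes for eIF2B subunits cause vanishing white matter disease, a disorder of myelin.

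Eif3j2 had the lowest p of the 51 genes, and it is a copy of Eif3j1. Both encode the J subunit of eIF3, which sits near the mRNA channel of the small subunit. Eif3j1 (ENSMUSG00000027236, mm10 chromosome 2, 122028546 to 122056598, plus strand) is a spliced gene with 8 exons in its GENCODE M21 coding transcript. Eif3j2 (ENSMUSG00000043424, chromosome 18, 43475418 to 43477796, minus strand) has 1 exon. Aligned base by base, 2365 of the 2379 bases (99.41%) of the Eif3j2 transcript were identical to Eif3j1. The differences were 4 mismatched bases, a stretch of 6 extra bases at the start of the Eif3j2 coding part and a stretch of 4 extra bases after it. The Eif3j1 transcript goes on for 2967 bases beyond the shared part. Of the mismatches, 1 lies in the 5′ untranslated part (base 104 of the Eif3j1 transcript) and 3 in the 3′ untranslated part (bases 1607, 1618 and 2301). Reads can be assigned to a copy only where they cover a difference or the part that Eif3j1 has alone.

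Of the 2280 stretches of 100 bases in the Eif3j2 transcript, 1915 (84.0%) also stand in the Eif3j1 transcript, and so do 1719 of 2230 stretches of 150 bases (77.1%). How the read counter treated reads that match both copies is not given in the sources used here. Both counts are therefore uncertain, since shared reads could fall to either copy.

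**Figure D1:**
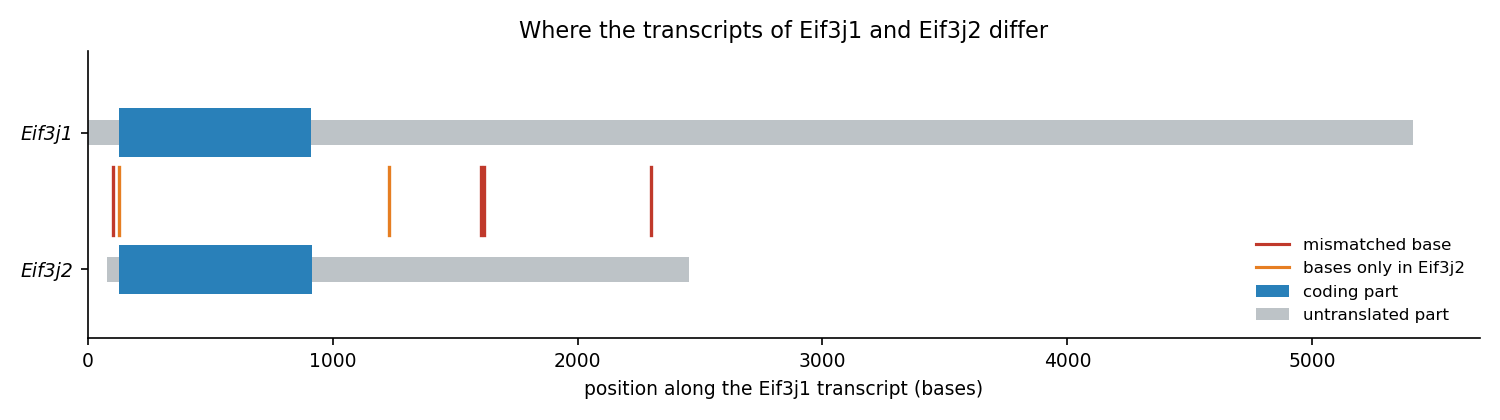
Transcripts of Eif3j1 (top) and Eif3j2 (bottom) drawn to scale along the Eif3j1 transcript in bases, with coding parts as thick blue bars. Red lines mark the 4 mismatched bases and orange lines the 2 stretches that only Eif3j2 has; the coding parts differ at 1 of these places.

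Eif3j2 had 33, 14, 27 and 25 counts in replicates 1 to 4 labelled Nsun5-KO, against 66, 68, 82 and 68 counts in WT replicates 1 to 4. Scaled to library size these were 2.08, 0.827, 1.68 and 1.42 CPM in libraries labelled Nsun5-KO and 3.84, 4.36, 4.96 and 3.86 CPM in WT. Each library labelled Nsun5-KO lay below each WT library. The mean was 1.5 ± 0.524 CPM in libraries labelled Nsun5-KO and 4.25 ± 0.529 CPM in WT (SD, n = 4 each), a log2 fold change of -1.50 (SE 0.26, 95% interval -2.07 to -0.93). By edgeR's quasi-likelihood test it did not pass the adjustment over 16062 genes (adjusted p = 0.187). DESeq2 called it (log2 fold change -1.50, adjusted p = 0.00032), as did edgeR without its filter on low counts (adjusted p = 0.00296); over all alternatives the adjusted p ran from 0.00032 to 0.588. In FPKM, a unit scaled by library size and gene length, on the log2(FPKM + 1) scale that understates changes of low genes, it was at -0.78 (limma adjusted p = 0.247).

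Eif3j1 had 609, 734, 728 and 775 counts in libraries labelled Nsun5-KO, against 668, 586, 569 and 673 in WT. In CPM it had 38.3, 43.3, 45.3 and 44.0 in libraries labelled Nsun5-KO and 38.8, 37.6, 34.4 and 38.2 in WT. Replicates 2, 3 and 4 labelled Nsun5-KO lay above all WT libraries, and replicate 1 lay within their range. Eif3j1 was at a log2 fold change of 0.20 (SE 0.079), with an edgeR adjusted p = 0.429. Exons of Eif3j1 share 1107 bases with Spg11 on the opposite strand, whose highest count in any library was 325, and the library kit does not mark the strand.

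Eif3j2 made up 3.43% ± 1.35 of the counts of both copies in libraries labelled Nsun5-KO and 10.3% ± 1.66 in WT (SD, n = 4 each). The groups did not overlap, and the exact two-sided permutation p was 0.0286, the smallest that 4 against 4 libraries can give. This share restates the lower Eif3j2 counts, which did not overlap either, and the gene was chosen with earlier results known. Its p-value is therefore not separate support for a difference. In FPKM the share was 7.96% ± 3.0 in libraries labelled Nsun5-KO and 21.9% ± 3.04 in WT. The copies differed in opposite directions from WT, by -2.75 CPM for Eif3j2 and by 5.47 CPM for Eif3j1. Together they had 40.4, 44.2, 46.9 and 45.4 CPM in libraries labelled Nsun5-KO and 42.7, 41.9, 39.4 and 42.0 CPM in WT. These groups overlapped (exact permutation p = 0.171), and the summed counts had a log2 fold change of 0.091 with a 95% interval of -0.068 to 0.25 (SE 0.073; adjusted p = 0.707 with edgeR). Summed as FPKM, which gives the shorter Eif3j2 more weight, the log2 fold change was -0.032 with limma.

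**Figure D2:**
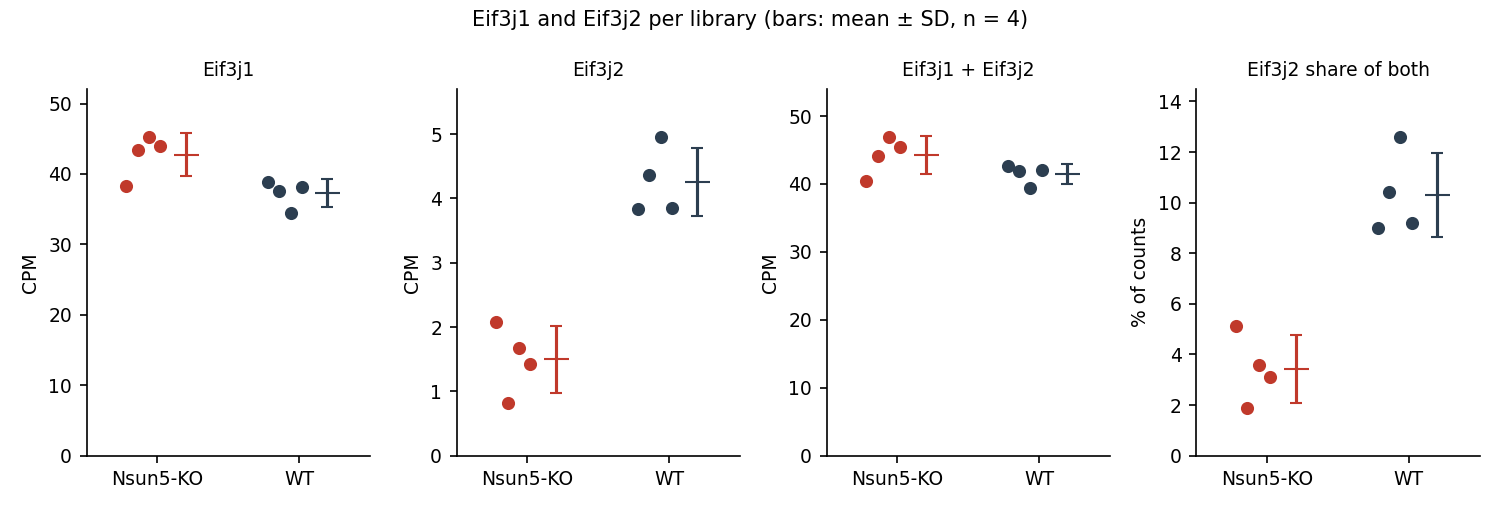
Eif3j1, Eif3j2 and their sum in CPM, and the percent of the counts of both copies that Eif3j2 took, with 1 point per library and the mean ± SD beside the points. Eif3j2 and its share lie lower in all 4 libraries labelled Nsun5-KO (left of each panel) than in WT, while the sum overlaps.

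Over all initiation factor genes, differences from WT were small. The low-count filter kept 49 of the 51. Eif4e1b, the eIF4E copy of the oocyte, was at 0 in all 8 libraries, and Eif4ebp3, an eIF4E-binding protein, had 0 to 3 counts. The median log2 fold change of the 49 was -0.011, beside -0.0055 over all 16062 genes tested, with 22 above and 27 below WT. In 45 of them (91.8%) it was below 0.2 in size, against 69.8% of all genes tested and 83.4% of those with a mean of at least 10 CPM. EdgeR called 0 of the 49 at an adjusted p below 0.05, as it called 0% of all genes. DESeq2 called Eif3j2 alone among them, at a background of 0.335% of the 28997 genes with any count. That share may be too low, since it also counts genes that DESeq2 can leave without an adjusted p. EdgeR without its filter also called Eif3j2 alone, at a background of 0.235%.

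At an unadjusted edgeR p below 0.05 stood 10 of the 49 (20.4%), where 10.4% of all genes tested did. Of these, 4 were higher (background 5.3%) and 6 lower (background 5.05%). Most initiation factor genes had a mean of at least 10 CPM. Of all 10157 genes tested at that level, 737 were higher and 410 lower at this threshold. In the main fit, 1663 of all 16062 genes tested stood at this threshold. Initiation factor genes at this threshold numbered 6 of 49 without WT replicate 1, beside 1363 of 16280 genes. Leaving out replicate 1, 3 or 4 labelled Nsun5-KO gave 6, 3 and 6 of 49. Over all genes these fits gave 1195 of 16356, 1320 of 16344 and 1718 of 16316. Without WT replicates 1 and 2 there were 8 of 49, beside 1192 of 16606 genes. Without replicates 1 and 3 labelled Nsun5-KO there were 2 of 49, beside 944 of 16746. Libraries did not overlap between the genotypes in 8 of the 49, 3 higher (background 2.99%) and 5 lower (background 2.71%), beside 5.7% of all genes in either direction. Of the 10157 genes with a mean of at least 10 CPM, 412 were higher and 216 lower without overlap. No test sets these counts against the background, and among the 10 genes every adjusted p but that of Eif3j2 lay between 0.412 and 0.461.

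**Figure D3:**
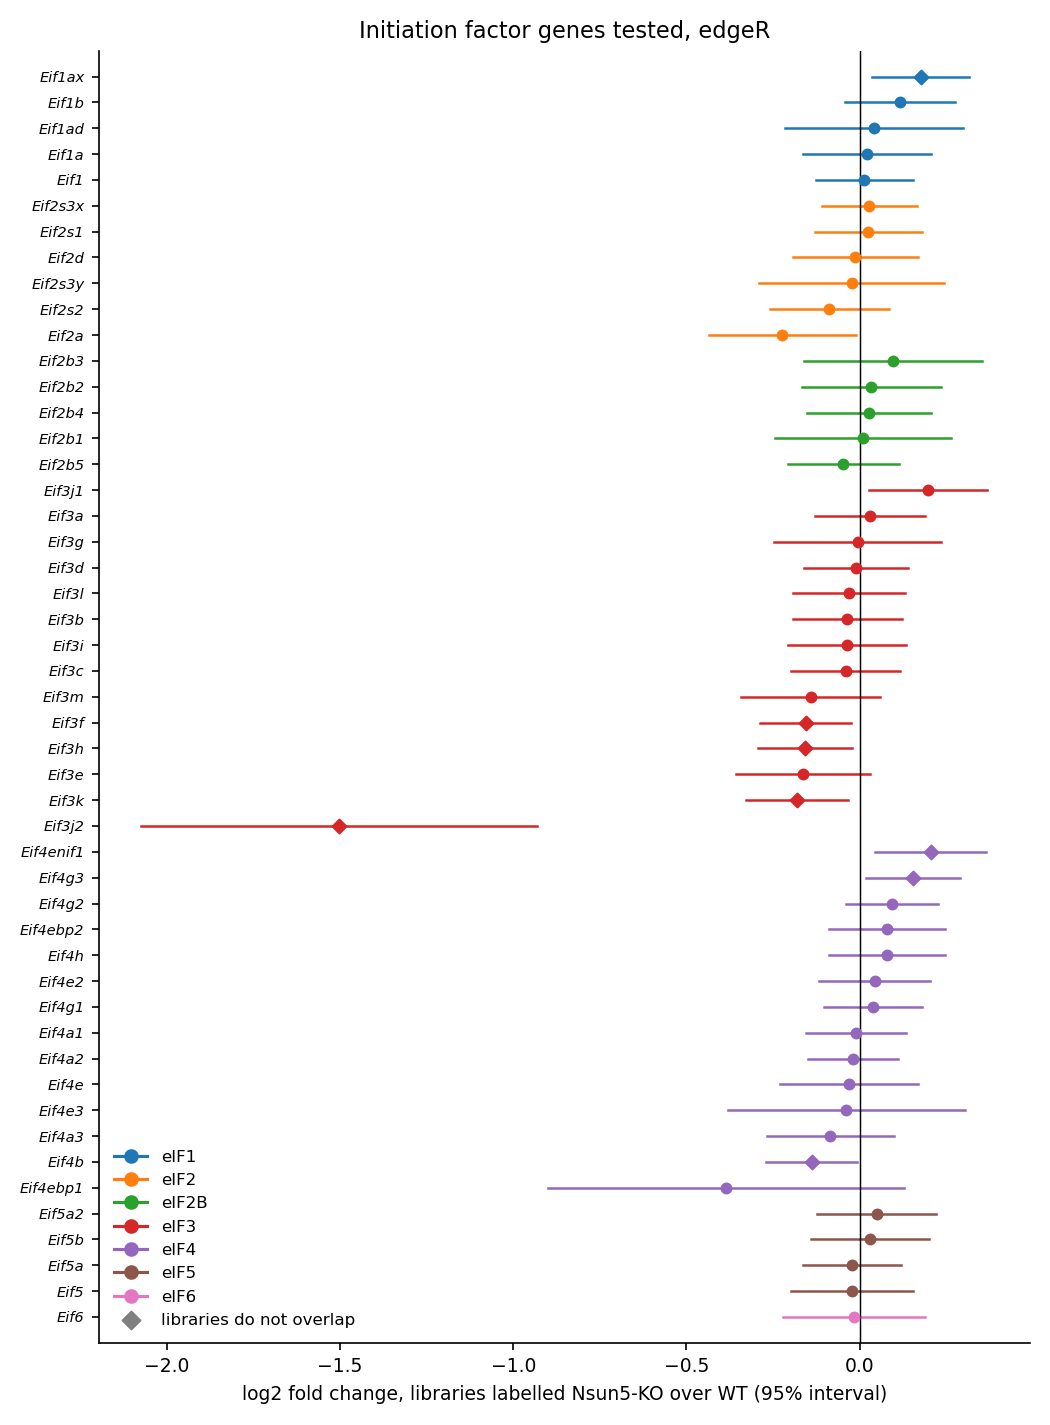
Log2 fold change with its 95% interval for the 49 initiation factor genes tested, grouped by factor; diamonds mark genes whose libraries do not overlap. Eif3j2 stands at -1.50, and the other 48 lie between -0.39 and 0.20.

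In eIF1, which sets the stringency of start codon choice, all 5 genes lay above WT, where 7811 of all 16062 genes tested did. Among genes with a mean of at least 10 CPM, 5544 of 10157 lay above WT. The 5 genes were at 0.013 to 0.18 on the log2 scale, with a median log2 fold change of 0.041. Eif1ax, the X-linked gene of eIF1A (chromosome X, 159372178 to 159389928), had 246, 236, 252 and 238 CPM in libraries labelled Nsun5-KO and 228, 222, 208 and 203 CPM in WT. The groups did not overlap (log2 fold change 0.18, SE 0.064, edgeR adjusted p = 0.412). Its autosomal partner Eif1a was at 0.020, and Eif1 and Eif1b were at 0.013 and 0.12. By length-scaled level, Eif1 was the highest of the group (142.9 ± 5.75 FPKM in libraries labelled Nsun5-KO and 141.1 ± 6.36 in WT) and Eif1ad, a protein with an eIF1A domain, the lowest (10.2 ± 1.19 FPKM in libraries labelled Nsun5-KO and 9.86 ± 1.42 in WT). Eif1ax made up 67.9% ± 1.1 of the FPKM of both eIF1A genes in libraries labelled Nsun5-KO and 65.6% ± 1.7 in WT. These ranges overlapped. Eif1 shares 19.2% of its stretches of 100 bases with transcripts of other genes, and Eif1ad 13.4% with Banf1. Exons of Eif1ad share 428 bases with Banf1 on the opposite strand, whose highest count in any library was 595.

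The eIF2 trimer, which delivers the initiator tRNA, stayed close to WT. Its alpha subunit gene Eif2s1 was at a log2 fold change of 0.025, the beta subunit gene Eif2s2 at -0.088 and the gamma subunit genes Eif2s3x and Eif2s3y at 0.028 and -0.024. Summed over these 4 genes the level was 45.5 ± 0.998 FPKM in libraries labelled Nsun5-KO and 45.4 ± 1.52 in WT. The Y-linked copy Eif2s3y gave 21.2% ± 2.47 of the gamma subunit FPKM in libraries labelled Nsun5-KO and 21.9% ± 2.73 in WT. Eif2s3x shares 35.3% and Eif2s2 18.8% of their stretches of 100 bases with a processed pseudogene each, so their counts are uncertain. Eif2a, which is not a subunit of eIF2 and can bring initiator tRNA by another route, was the member of the group with the lowest p. Eif2a (chromosome 3, 58525821 to 58557501) had 40.2, 39.4, 40.4 and 45.5 CPM in libraries labelled Nsun5-KO and 53.4, 52.3, 47.7 and 39.8 CPM in WT. WT replicate 4 lay within the range of the libraries labelled Nsun5-KO; the gene was at -0.22 on the log2 scale (SE 0.098, adjusted p = 0.461 with edgeR). Eif2d, another factor that can bind initiator tRNA, was the lowest of the group (2.86 ± 0.147 FPKM in libraries labelled Nsun5-KO, 2.87 ± 0.108 in WT).

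The 5 genes of eIF2B, the exchange factor on which the stress response acts, lay within 0.1 of WT on the log2 scale. Eif2b1 (alpha) was at 0.0095, Eif2b2 (beta) at 0.034, Eif2b3 (gamma) at 0.096, Eif2b4 (delta) at 0.027 and Eif2b5, the catalytic epsilon subunit, at -0.047. None passed an unadjusted edgeR p of 0.05, and the widest bounds of their 95% intervals were -0.25 and 0.35. Eif2b5 was the highest of the group at 20.4 ± 1.42 FPKM in libraries labelled Nsun5-KO and 21.03 ± 0.797 in WT, and Eif2b3 the lowest at 2.25 ± 0.08 FPKM in libraries labelled Nsun5-KO and 2.1 ± 0.323 in WT.

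**Figure D4:**
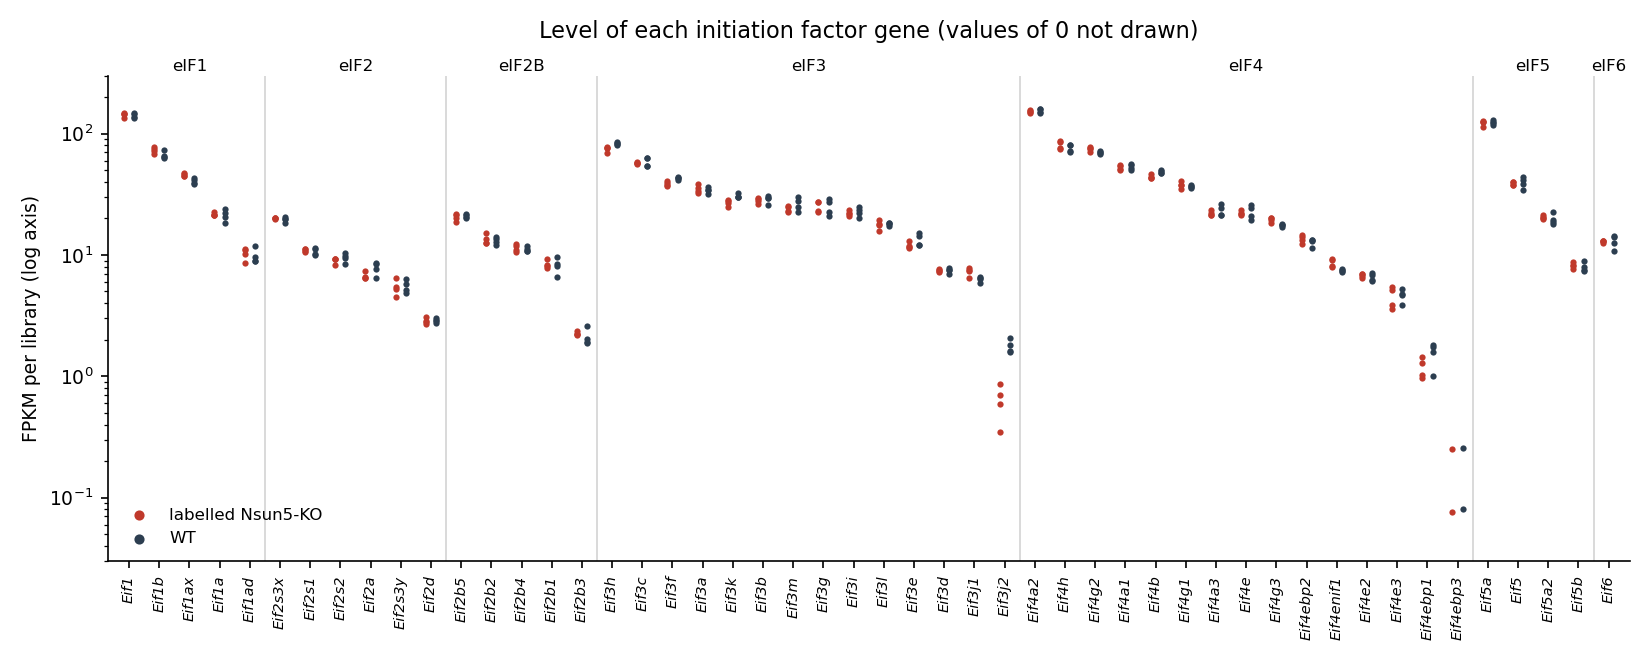
Level of each initiation factor gene with any count, in FPKM on a log axis with 1 point per library; libraries labelled Nsun5-KO are red and stand left of WT. Eif4a2, Eif1 and Eif5a are the most abundant, and Eif3j2 lies at 0.626 in libraries labelled Nsun5-KO and 1.77 in WT.

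The eIF3 genes, whose products form the scaffold on the small subunit, were mostly at lower values: 12 of 14 lay below WT, and the median of their log2 fold changes was -0.039, where 8251 of all 16062 genes tested lay below WT. Their summed level was 383, 379, 369 and 377 FPKM in libraries labelled Nsun5-KO and 402, 407, 390 and 398 FPKM in WT. These groups did not overlap, and the ratio of their means was -0.083 on the log2 scale. The sum is weighted to genes of high FPKM and includes Eif3f, Eif3h and Eif3k, given below, so it is not separate from them. Eif3h alone was at 74.7 FPKM in libraries labelled Nsun5-KO and 83.1 in WT. Libraries of 4 of the 14 genes did not overlap, all lower in libraries labelled Nsun5-KO, where 2.71% of all genes tested were of that kind; besides Eif3j2 these were Eif3f, Eif3h and Eif3k.

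Eif3h (chromosome 15, 51786558 to 51865523), the highest gene of the complex in FPKM, had 125, 123, 113 and 123 CPM in libraries labelled Nsun5-KO and 134, 132, 139 and 136 CPM in WT (log2 fold change -0.16, SE 0.062, edgeR adjusted p = 0.417). Eif3f (chromosome 7, 108934417 to 108942951), which encodes a partner of the H subunit, had 114, 117, 110 and 108.5 CPM in libraries labelled Nsun5-KO and 129, 121, 125 and 126 CPM in WT (-0.16, SE 0.06, adjusted p = 0.413). Eif3k (chromosome 7, 28971372 to 28981864), the smallest subunit, had 75.2, 77.0, 67.7 and 72.7 CPM in libraries labelled Nsun5-KO and 87.7, 81.3, 81.3 and 81.5 CPM in WT (-0.18, SE 0.067, adjusted p = 0.412). None of the 3 passed the adjustment over all genes.

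Eif3e and Eif3m were at -0.16 and -0.14, with WT replicates 1 and 2 above the libraries labelled Nsun5-KO and WT replicates 3 and 4 inside their range. Eif3e had 77.8, 78.4, 88.2 and 81.0 CPM in libraries labelled Nsun5-KO and 96.8, 103.8, 81.8 and 82.2 CPM in WT. The other subunit genes besides the J copies were within 0.05 of WT on the log2 scale: Eif3a was at 0.029, Eif3b at -0.036, Eif3c at -0.041, Eif3d at -0.011, Eif3g at -0.0057, Eif3i at -0.037 and Eif3l at -0.030. Leaving out replicate 1 labelled Nsun5-KO put the group median at -0.067, and leaving out WT replicate 1, 3 or 4 put it at -0.087, -0.084 and -0.066. Eif3h shares 11.8% and Eif3m 10.4% of their stretches of 100 bases with processed pseudogenes.

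**Figure D5:**
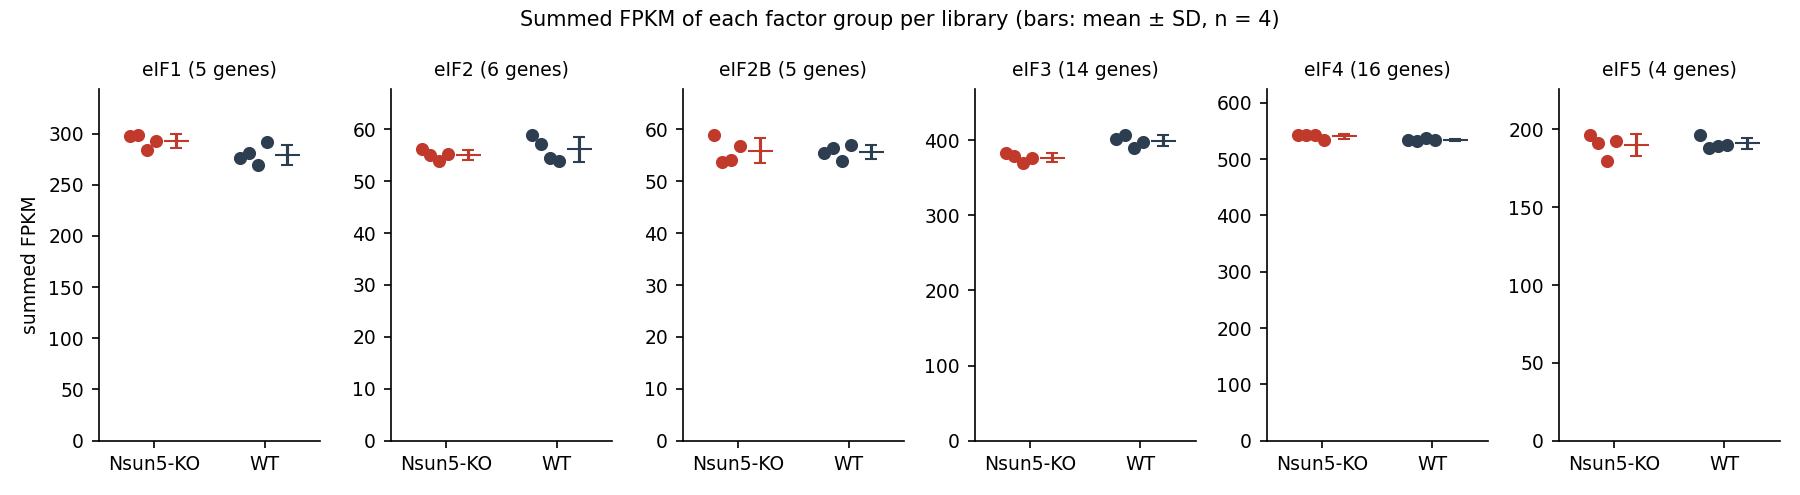
Summed FPKM of each factor group per library, with the mean ± SD beside the points and axes from 0; eIF6 is a single gene and is left out. The eIF3 sums are 369 to 383 in libraries labelled Nsun5-KO and 390 to 407 in WT, and the other 5 groups overlap.

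Several mRNAs of the translation machinery begin with a run of pyrimidines (the terminal oligopyrimidine motif, known for ribosomal proteins), so the annotated starts were searched for one. The search took a C followed by at least 4 bases that are each C or T, on the gene's strand only, beginning within 5 bases of a RefSeq start (GRCm38.p6). Of the initiation factor genes, 39 had a start in the table and 10 of them (25.6%) held such a run, as did 5718 of 27025 genes (21.2%). A run was counted from the first C inside that window, so pyrimidines before it were left out, as in Eif2b5 (8 bases counted). By this count, the longest runs are shown in capitals, on 10 bases before and 20 bases from the annotated start on.
Eif3f, chr7:108934405-108934434, plus strand: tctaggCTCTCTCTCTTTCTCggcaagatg
Eif2s3x, chrX:94212632-94212661, minus strand: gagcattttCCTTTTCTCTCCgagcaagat
Eif2s3y, chrY:1010585-1010614, plus strand: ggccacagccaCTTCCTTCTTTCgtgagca
The run of Eif3f has 15 bases and those of Eif2s3x and Eif2s3y 12 each. Their log2 fold changes, in this order, were -0.16, 0.028 and -0.024 (SE 0.06, 0.063 and 0.12). These genes are 3 of the 10 with a run, and genes without a RefSeq start were not searched. Whether a run goes with the fold change was not tested. The search and the genes shown were chosen after the values were seen.

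The eIF4 genes, which recruit mRNA through its cap, divided evenly, with 7 of 14 tested above WT and their median at 0.014 on the log2 scale. Both genotypes had about the same summed level, 540.9 ± 4.24 FPKM in libraries labelled Nsun5-KO and 534.4 ± 1.68 in WT. Libraries of 3 of the 14 genes did not overlap, 2 higher (2.99% of all genes tested) and 1 lower (2.71%). Eif4enif1, whose product 4E-T carries eIF4E into the nucleus and represses mRNAs (chromosome 11, 3202392 to 3244588), had 58.1, 51.0, 58.8 and 52.1 CPM in libraries labelled Nsun5-KO and 47.4, 49.6, 47.9 and 46.1 CPM in WT (0.20, SE 0.074, edgeR adjusted p = 0.412). Eif4g3, a scaffold paralogous to eIF4G1 (chromosome 4, 137993022 to 138208508), had 226, 204, 223 and 218 CPM in libraries labelled Nsun5-KO and 198, 196, 200 and 188 CPM in WT (0.15, SE 0.062, adjusted p = 0.434). Eif4b, a cofactor of the eIF4A helicase (chromosome 15, 102073773 to 102097173), lay lower, with 195, 207, 191 and 199 CPM in libraries labelled Nsun5-KO and 225, 222, 214 and 211 CPM in WT (-0.14, SE 0.06, adjusted p = 0.459).

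The cap-binding protein gene Eif4e was at -0.031 and its competitor gene Eif4e2 at 0.043. The helicase genes Eif4a1 and Eif4a2 were at -0.010 and -0.019. Eif4a2 was the most abundant initiation factor gene, at 152.3 ± 4.41 FPKM in libraries labelled Nsun5-KO and 153.9 ± 5.28 in WT, and gave 74.2% ± 1.41 of the FPKM of both helicase genes in libraries labelled Nsun5-KO and 74.4% ± 1.63 in WT. Eif4a1 shares 60.8% of its stretches of 100 bases with the pseudogene Eif4a-ps4, which had 589 to 750 counts in libraries labelled Nsun5-KO and 584 to 746 in WT, so its level is uncertain. Eif4a3, a helicase of the exon junction complex, was at -0.085.

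Among the scaffolds, Eif4g1 was at 0.038 and Eif4g2, which lacks the eIF4E-binding site, at 0.093. Eif4h, a cofactor related to eIF4B, was at 0.079. Of the eIF4E-binding proteins, which mTOR controls, Eif4ebp2 was at 0.079 and Eif4ebp1 at -0.39 (SE 0.24, edgeR adjusted p = 0.605). Eif4ebp1 was sparse, at 2.83, 3.19, 2.11 and 2.27 CPM in libraries labelled Nsun5-KO and 3.49, 2.24, 3.99 and 3.86 CPM in WT, and its groups overlapped. Eif4ebp2 gave 92.0% ± 1.51 of the FPKM of both in libraries labelled Nsun5-KO and 89.3% ± 2.46 in WT. The smaller cap-binding copy Eif4e3 was at -0.039.

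The genes of eIF5 and eIF6 lay within 0.05 of WT on the log2 scale. Eif5, the GTPase activator of eIF2, was at -0.022, Eif5b, the GTPase of subunit joining, at 0.029, and Eif5a, which carries hypusine and aids the ribosome on difficult stretches, at -0.022. The copy Eif5a2 was at 0.049. Eif5a had 122.4 ± 5.82 FPKM in libraries labelled Nsun5-KO and 123.9 ± 4.94 in WT, and Eif5a2 gave 14.3% ± 0.468 of the FPKM of both in libraries labelled Nsun5-KO and 13.8% ± 1.5 in WT. Eif5b was the lowest of the group (8.15 ± 0.462 FPKM in libraries labelled Nsun5-KO and 7.96 ± 0.697 in WT) and shares 1643 exonic bases with Rev1 on the opposite strand. Eif6, which keeps the large subunit from joining early, had 12.9 ± 0.216 FPKM in libraries labelled Nsun5-KO and 13.0 ± 1.68 in WT. Of the 9 pairs of copies compared by share, the Eif3j pair was the one whose libraries did not overlap between the genotypes.

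Genes that act on the initiation factors showed few values past an unadjusted edgeR p of 0.05. Of the 9 eIF2 kinase and phosphatase genes, 0 were past it in either direction (median log2 fold change 0.024). Of 20 genes listed as the stress factor Atf4 and its targets, 2 were higher and 0 lower (median 0.048). These were Ddit4, an inhibitor of mTOR (0.36, SE 0.12, adjusted p = 0.385), and Nupr1, a stress-induced nuclear protein (0.41, SE 0.18, adjusted p = 0.461). Ddit4 had 53.0, 57.0, 62.9 and 60.0 CPM in libraries labelled Nsun5-KO and 36.5, 39.6, 50.6 and 54.5 CPM in WT, with WT replicate 4 inside their range. Of the 14 mTOR and MNK genes, 0 were past it (median 0.075). Of 12 partners at the cap and the poly(A) tail, 1 was higher, Cyfip2, a relative of the eIF4E-binding protein Cyfip1 (0.17, SE 0.068, adjusted p = 0.428). The 11 further scanning and recycling factors and the 2 hypusine enzymes had 0 genes past it (medians 0.017 and 0.049). At a background of 10.4% in either direction, these counts were 3 of 68 genes.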

How the data were processed

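RNA was taken with TRIzol and libraries were made with the NEBNext Ultra RNA kit, per the labels' protocols, from brain tissue; 4 libraries are labelled Nsun5-KO and 4 WT. Reads were aligned with HISAT2 2.0.5 to mm10, per the submitters' processing notes; which counter and annotation followed is not given in the sources used here. Per the file headers, the authors deposited whole-number read counts per gene and library, and FPKM values. The FPKM scaling constant, worked out from counts and gene lengths, came to 0.981 to 1.02 of each library's total. Rankings by FPKM and shares of copies in FPKM depend on these gene lengths, such as 4161 bases for Eif2s3y and 3812 for Eif2s3x. Deposited group means were not used.

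The main test was edgeR 4.0.16 (R 4.3.3; filterByExpr, TMM, quasi-likelihood, genotype alone) on all genes with Benjamini-Hochberg adjustment, tested on simulated data. CPM were scaled by TMM. DESeq2 1.42.0, limma 3.58.1 (voom on counts, or trend on log2 FPKM with a pseudocount of 1 or 0.1), other scalings and filters, protein-coding genes alone, a block by replicate number and leaving out libraries were alternatives. Exact two-sided permutation tests used scipy 1.17.1 over 70 labelings. Transcripts were aligned with biopython 1.88 from GENCODE M21, where 48 of the 51 genes have the coordinates of the count table. Promoter sequence came from RefSeq (GRCm38.p6).

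Genes named were Eif3j1 and Eif3j2, genes with an unadjusted p below 0.05 or libraries that do not overlap, the highest and lowest of each group by FPKM, eIF2 and eIF2B subunits, pairs of copies and, in related lists, genes with an unadjusted p below 0.05; the remaining initiation factor genes are given by their fold change. The genes and lists were chosen with earlier results of these data known. The marker lists not given in the results (astrocytes, microglia, endothelium and blood) had summed levels that overlapped between the genotypes. Library totals limit precision most for genes of a few counts. Of the myelin marker list, 1 gene is not reported here, and the summed level given leaves it out.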

Additional observations from a re-analysis of the deposited data

Results flagged for a closer look

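In 5 of the 98 sets of 4 libraries (each initiation factor gene tested, in each genotype), 1 library stood apart from the other 3 by more than Dixon's critical value; chance gives this in about 5% of sets. In replicate 4 labelled Nsun5-KO, Eif1a was at 65.59 CPM (the others 61.53 to 62.05) and Eif2a at 45.5 CPM (39.39 to 40.35). In replicate 3 labelled Nsun5-KO, Eif2s2 was at 55.77 CPM (62.69 to 63.18) and Eif6 at 34.07 CPM (35.31 to 35.4). In WT replicate 1, Eif3k was at 87.68 CPM (81.28 to 81.51).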

How the results depend on the processing

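The count of all genes called was 0 in the main edgeR fit (1663 genes at an unadjusted p below 0.05), 68 without the low-count filter, 97 with DESeq2, 1 with limma on log2(FPKM + 0.1) and 0 to 2 with 1 library left out, 2 of them without replicate 4 labelled Nsun5-KO. Initiation factor genes called were 1 without the filter and 1 with DESeq2 (Eif3j2, -1.50 in both), and 0 to 0 with 1 library left out. Those at an unadjusted p below 0.05 numbered 6 of 50 without the filter, 4 of 49 with the replicate block and 3 to 10 with 1 library left out. Without replicates 1 and 3 labelled Nsun5-KO they numbered 2. Over all genes, 2315 of 28997 stood there without the filter and 1269 of 16062 with the block. The all-gene count was 1140 to 1926 with 1 library left out, and 944 of 16746 without replicates 1 and 3 labelled Nsun5-KO. The block by replicate number put Eif3j2 at -1.54 (edgeR adjusted p = 0.588). Libraries of the same number deviated with correlations of -0.115, -0.213, -0.0411 and 0.0631, and no library labelled Nsun5-KO correlated best with its own number, so the numbers were not read as pairs. Eif3j2 ranged over -1.70 to -1.31 with 1 library left out (adjusted p 0.127 to 0.560). The summed Eif3j counts reversed with FPKM, to -0.032 at log2(FPKM + 1) and -0.036 at log2(FPKM + 0.1), scales that weight Eif3j2 by its shorter length. The difference in Eif3j2 share was -7.43 to -6.09 points with 1 library left out (exact permutation p = 0.0571, the smallest that 3 against 4 can give), -7.46 without WT replicates 1 and 2 and -7.79 without replicates 1 and 3 labelled Nsun5-KO (exact p = 0.133, the smallest possible); scaling, filter and test leave this share as it is by construction. Group medians with 1 library left out ran from 0.025 to 0.14 in eIF1, -0.087 to -0.038 in eIF3 and 0.0061 to 0.034 in eIF4. The eIF4 median was -0.012 with library totals and -0.011 without replicates 1 and 3 labelled Nsun5-KO, where eIF1 was at 0.10 and eIF2B at -0.023. Without WT replicates 1 and 2, eIF5 was at 0.10 and eIF6 at -0.15. These pairs of libraries were chosen after seeing the data, and the cause of these moves was not tested. Of the other genes with an unadjusted p below 0.05, Eif3j1 ranged over 0.16 to 0.25 in its 20 alternatives and stayed short of the adjusted threshold, and the remaining 8 kept their sign and stayed short of the adjusted threshold in all 160 values. Library totals moved the median of all genes to -0.030. Eif3j2 rests on 14 to 82 counts a library, so its value is the least precise of the genes described at length.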
